A study of Gossypium hirsutum with 6 samples.

Results

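Endoglucanases are enzymes that cut the glucan chains of cellulose and related wall polymers from within. The endoglucanase genes of upland cotton (Gossypium hirsutum) described here are those whose best Swiss-Prot hit has a description starting with Endoglucanase. They numbered 53 of 73622 genes in the authors' table. Of these, 8 were described as Endoglucanase 25, the membrane-bound type known as KORRIGAN, and 45 carried other endoglucanase names. RNA was sequenced from fibers of strain 63, with no treatment named in the labels. Fibers were taken 5 and 15 days post-anthesis (5DPA and 15DPA), and each stage had 3 libraries that the design calls biological replicates. A fiber is a single cell that grows from the seed coat epidermis, and a fiber sample is a bulk of such cells and of whatever seed tissue came with them. In such bulk samples fewer cells of a type and less RNA per cell cannot be told apart.

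Plant endoglucanases fall into types with different places of work. In Arabidopsis KORRIGAN is anchored in the membrane, travels with the cellulose synthase complex and is needed for normal cellulose deposition in growing walls. Other members are secreted into the wall, and some of these, among them Endoglucanase 5 and Endoglucanase 6 of Arabidopsis, carry an additional domain that binds cellulose. How a member acts in cotton is not shown by its name, which was carried over from the hit in another plant.

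Annotations that the choice of members did not use were set beside the name. A protein match described as an endoglucanase was listed for 50 of 53 members, and 38 carried the gene ontology term for hydrolysis of glycosidic bonds. The carbohydrate binding term was listed for 6 members, which were 4 of the 6 Endoglucanase 6 genes and both Endoglucanase 5 genes. The hit was an Arabidopsis entry for 46 members. One member, Gh_D04G205900, had its hit in the bacterium Paenibacillus polymyxa and a protein match of uncharacterized function. The KEGG identifier for endoglucanase, K01179, was listed for 1 of 20 members that were tested for a change and 21 of 33 that were too low to be tested. Members lay on both subgenomes of cotton, 26 on A chromosomes and 27 on D chromosomes.

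The libraries held 15.61 to 16.94 M counts. A principal component analysis put the stages apart on its first axis, with 60.9% of the variance, and 15DPA replicate 2 lay nearest to 5DPA. Marker lists matched by description were read beside the members, as sums in FPKM (fragments per kilobase of gene model and per M counts). The fiber markers (expansin-A, fasciclin-like arabinogalactan and beta-tubulin genes) summed to 10883 to 14194 FPKM at 5DPA and 19712 to 26169 FPKM at 15DPA, and each of the 3 families was abundant, so markers of the labelled tissue were present. Single genes went both ways: by the test used below, 32 of 99 tested fiber markers rose at 15DPA and 16 fell. Of 34 tested expansin-A genes 8 rose and 12 fell, with a median log2 change of −0.77. The expansin-A sum still went from 4472 to 6459 FPKM up to 9185 to 13444 FPKM. The dividing cell markers (histones and B-type cyclins) went from 5334 to 7998 FPKM down to 1242 to 2019 FPKM. The green tissue markers went from 74.0 to 79.8 FPKM down to 25.6 to 46.8 FPKM, and the seed and embryo markers from 5.45 to 8.11 FPKM up to 12.4 to 16.7 FPKM. Legumin and 2S storage protein genes were at 0 in every library. The xylem and secondary wall markers held 41.7 to 62.9 FPKM at 5DPA and 63.7 to 70.2 FPKM at 15DPA. The part of these shifts in the changes below was not tested.

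Most endoglucanase genes were silent or of low level in fibers. Of the 53 members, 20 reached a mean of 1 FPKM over the 6 libraries and were tested, and 33 did not. The same filter was met by 40054 of all 73622 genes, so many genes other than the members also fell under it. No read fell on 9 of the untested members, and the highest value of any of the others in any library was 2.94 FPKM. All members together summed to 425 ± 43.4 FPKM at the early stage (SD, n = 3) and 537 ± 61.6 FPKM at the late one (SD, n = 3). The ranges of the stages lay next to each other, at 477 to 600.4 FPKM at 15DPA and 393 to 474 FPKM at 5DPA. Divided by the TMM scaling factors used for the test below, they lay further apart, at 540.2 to 694 FPKM and 339 to 445 FPKM. Endoglucanase 25 and Endoglucanase 6 made up most of the sum, with 34.6% ± 4.34 and 54.2% ± 4.10 at 15DPA and 31.1% ± 3.07 and 48.5% ± 4.26 at 5DPA (SD, n = 3 each). The 3 most abundant genes alone, 2 of them Endoglucanase 6 and 1 Endoglucanase 25, held 61.1% ± 2.23 of the sum at 15DPA and 52.1% ± 5.07 at 5DPA.

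**Figure D1:**
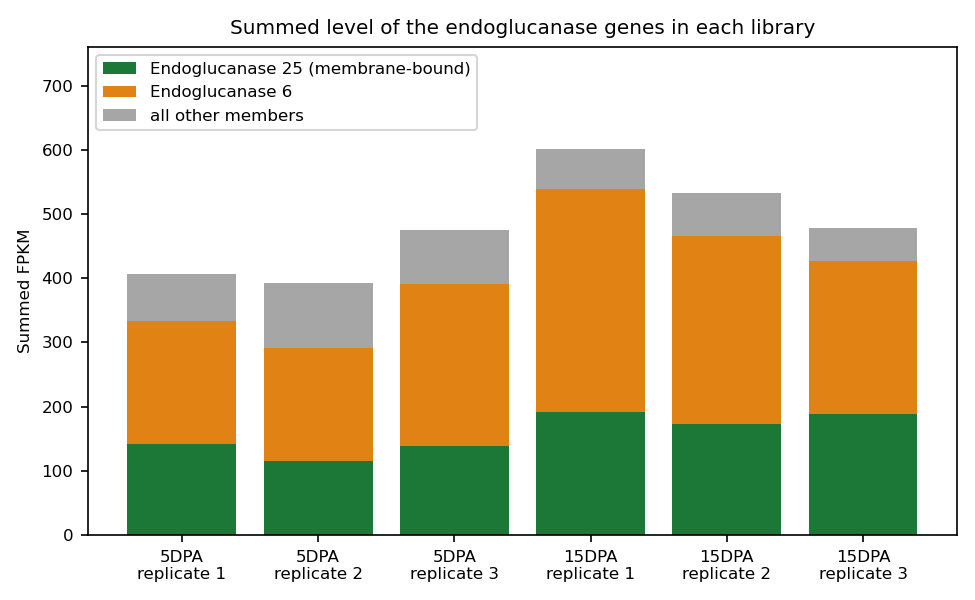
Stacked bars give the summed FPKM of the endoglucanase genes in each of the 6 libraries, split into Endoglucanase 25, Endoglucanase 6 and all other members. The total runs from 393 to 474 at 5DPA and from 477 to 600.4 at 15DPA, and the grey part from 73.2 to 101 at 5DPA and from 50.5 to 67.5 at 15DPA, ranges that overlap once divided by the TMM factors.

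Between the stages, 8 of the 20 tested endoglucanase genes rose at 15DPA and 3 fell, while 9 did not pass the test (quasi-likelihood test of edgeR, adjusted p under 0.05 over all genes tested). Among all 40054 genes tested 13.0% were called higher and 10.4% lower, 23.4% in either direction. The genes that rose were all 4 tested Endoglucanase 25 genes, 3 of 6 Endoglucanase 6 genes and 1 Endoglucanase 5 gene. Those that fell were 1 Endoglucanase 6 gene, 1 Endoglucanase 17 gene and 1 Endoglucanase 1 gene. The median log2 change was 0.20 over the tested members and −0.04 over all genes tested. Of the tested members 3 had a mean under 1 FPKM in one stage and were tested through the other, and among the 17 with at least 1 FPKM in each stage 7 rose and 2 fell.

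**Figure D2:**
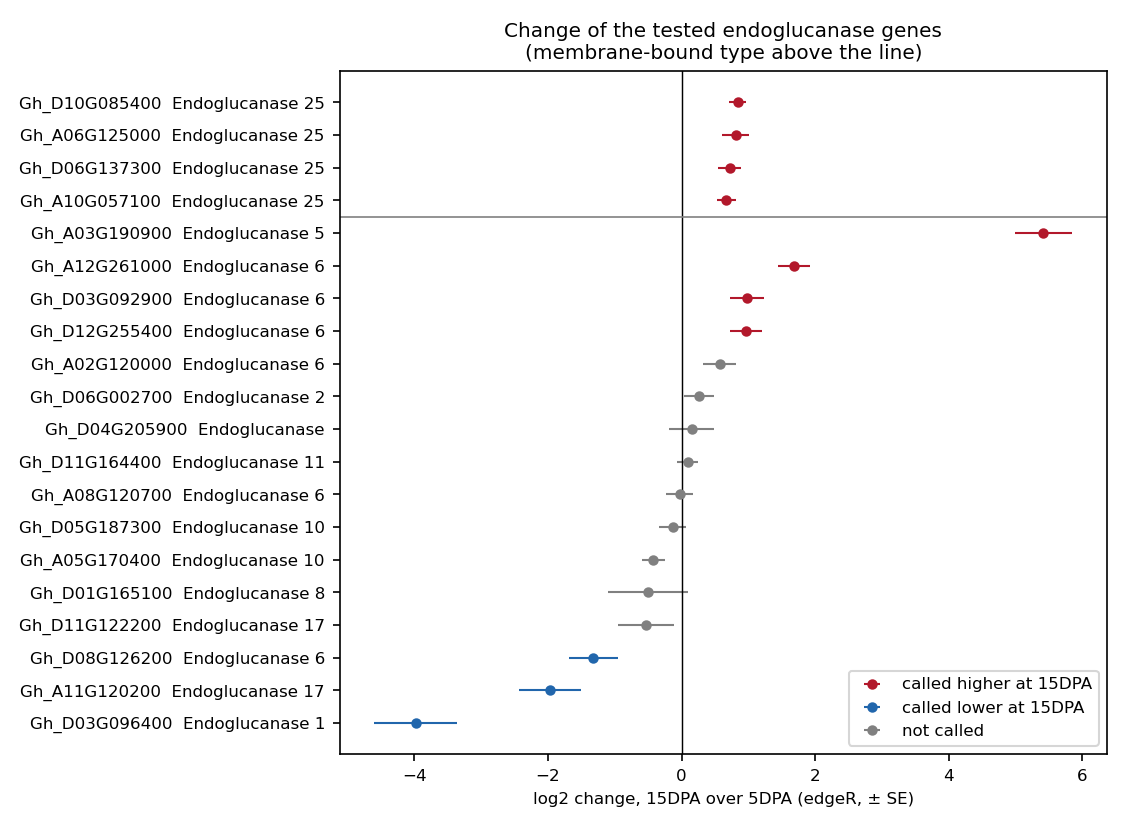
Points give the edgeR log2 change of each tested member, 15DPA over 5DPA, with its SE as a bar and colour by call. The 4 Endoglucanase 25 genes sit between 0.67 and 0.84, and the other members spread from −3.98 to 5.42.

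The membrane-bound genes came in 2 states. At the A06, D06, A10 and D10 loci they were expressed in every library, and the 4 at other loci were silent. The highest was Gh_A06G125000, on A06 from 59252569 to 59256306 on the minus strand, with 96.2, 81.1 and 98.0 FPKM at 15DPA and 71.8, 53.9 and 67.0 FPKM at 5DPA for replicates 1, 2 and 3. Each 15DPA library lay above each 5DPA library, and the gene rose by 0.81 on the log2 scale, with an SE of 0.20 (edgeR adjusted p = 0.028).

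Its D counterpart by chromosome number, Gh_D06G137300, on D06 from 39343556 to 39347315, had 56.3, 53.8 and 55.9 FPKM at 15DPA and 42.6, 35.4 and 45.4 FPKM at 5DPA. The 15DPA values were close together and again above all 5DPA values (log2 change 0.72 ± 0.17 SE, edgeR adjusted p = 0.0246). Gh_D10G085400, on D10 from 9958366 to 9962029, had 26.9, 25.1 and 22.2 FPKM at 15DPA and 17.1, 17.5 and 16.3 FPKM at 5DPA. This gene had the highest estimated rise of the 4, at 0.84 ± 0.13 on the log2 scale (SE, edgeR adjusted p = 0.00858), close to that of Gh_A06G125000. Their order was not stable: without 15DPA replicate 2 the changes were 0.90 for Gh_D10G085400 and 0.96 for Gh_A06G125000. Gh_A10G057100, on A10 from 9524348 to 9528034, had 11.5, 12.5 and 13.0 FPKM at 15DPA and 9.77, 8.90 and 9.87 FPKM at 5DPA. It was the lowest of the 4, its stages did not overlap, and it rose by 0.67 ± 0.14 (SE, edgeR adjusted p = 0.017). In FPKM the stage ranges did not overlap for 50.2% of all genes tested, 12.9% with 15DPA higher and 37.3% with 15DPA lower.

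The other 4 membrane-bound genes were at or near 0. Gh_A02G137800, Gh_A12G145200 and Gh_D03G085500 had no read in any library, and Gh_D12G144600 had 1 read in 5DPA replicates 1 and 3 and none elsewhere. For genes of these lengths 3 reads, the most that a count of 0 allows, were worth at most 0.111 FPKM in a library, counting error only. The silent genes also differed in annotation. Their KEGG identifier was K01179 in all 4 cases, while the 4 expressed genes carried K08472. The eggNOG group of related genes, virNOG03248, was listed for silent and expressed genes alike. The silent genes Gh_A02G137800 and Gh_D03G085500 also listed a second group, virNOG12397. What the difference in KEGG identifier means was not examined, and a difference in function was not tested. The silent pair on A12 and D12 had an endoglucanase 9-like protein as its closest protein match, although the Swiss-Prot hit was Endoglucanase 25. Gene models of the silent genes were 1737 to 1836 bases long and those of the expressed genes 2492 to 2589 bases. Over all members, the length was a multiple of 3 for 30 of 33 untested genes and 10 of 20 tested ones. Whether the models cover the same parts of the genes, such as untranslated ends, is not given in the sources used here. The lengths are therefore no measure of the proteins.

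The membrane-bound type was set against the other endoglucanase genes. All 4 tested membrane-bound genes rose, with a median log2 change of 0.77. Of 16 other tested members 4 rose and 3 fell, with a median of 0.03. The 6 Endoglucanase 6 genes among these also had a median of 0.77, with 3 called higher and 1 lower. A median rise of this size was thus not particular to the membrane-bound type. Members are not replicates, and the difference between the types was not tested. The sum of the membrane-bound genes was 191, 173 and 189 FPKM at 15DPA and 141, 116 and 139 FPKM at 5DPA, a ratio of means of 1.40. The stages did not overlap. The other members summed to 409.5, 359.5 and 288 FPKM at 15DPA and 267, 277 and 336 FPKM at 5DPA, a ratio of 1.20, and here the stages overlapped. That overlap depended on the scaling: divided by the TMM factors used for the calls, the other members summed to 335 to 473 FPKM at 15DPA and 239 to 315 FPKM at 5DPA, without overlap, and the ratios of means were 1.47 for them and 1.72 for the membrane-bound genes. Endoglucanase 6 alone had a ratio of means of 1.41 in FPKM, with overlapping stages. Divided by the TMM factors its ratio was 1.73, with 276 to 402 FPKM at 15DPA and 152 to 237 FPKM at 5DPA. The share of the membrane-bound type in the endoglucanase total, a ratio within each library that no scaling between libraries can move, was 31.8%, 32.4% and 39.6% at 15DPA and 34.7%, 29.5% and 29.2% at 5DPA. These shares overlapped, and the difference of their means, 3.50 percentage points, was below the SD at 15DPA. It was 1.00 percentage points without 15DPA replicate 3, the library with the highest share. With 3 libraries against 3 an exact two-sided permutation test of a single value cannot go below 0.1, so no test was made of sums or shares.

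Endoglucanase 6 was the most abundant type, and its 6 genes went different ways. The most abundant endoglucanase gene of all, Gh_A02G120000, on A02 from 46077747 to 46081443, had 185, 154 and 124 FPKM at 15DPA and 121, 100.2 and 159.9 FPKM at 5DPA. The stages overlapped, and it did not pass (log2 change 0.57 ± 0.25 SE, edgeR adjusted p = 0.139). Gh_A12G261000, on A12 from 102024968 to 102029234, had 100.4, 79.0 and 68.2 FPKM at 15DPA and 27.0, 28.3 and 39.3 FPKM at 5DPA. It rose by 1.68 ± 0.24 (SE, edgeR adjusted p = 0.00659) and went from 31.5 ± 6.76 to 82.5 ± 16.4 FPKM, beside 64.3 ± 9.28 and 91.8 ± 9.27 FPKM of the A06 membrane-bound gene (SD, n = 3 each).

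Their counterparts on D chromosomes were lower in every library. Gh_D03G092900, on D03 from 32618298 to 32622059, had 29.1, 23.0 and 13.8 FPKM at 15DPA and 12.8, 13.1 and 14.8 FPKM at 5DPA. Gh_D12G255400, on D12 from 59007500 to 59011164, had 22.4, 22.5 and 12.6 FPKM at 15DPA and 10.4, 11.4 and 13.8 FPKM at 5DPA. Both rose by edgeR, with log2 changes of 0.98 ± 0.26 and 0.97 ± 0.24 (SE, adjusted p = 0.034 and 0.026), yet in FPKM 15DPA replicate 3 lay within the 5DPA range for both.

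The pair on chromosome number 8 did not follow. Gh_A08G120700, on A08 from 75980642 to 75985087, had 9.93, 10.8 and 14.7 FPKM at 15DPA and 13.9, 14.0 and 16.6 FPKM at 5DPA and stayed outside the threshold (edgeR adjusted p = 0.921). Gh_D08G126200, on D08 from 42080717 to 42084997, fell from 8.12, 9.11 and 7.78 FPKM at 5DPA to 1.35, 2.47 and 4.29 FPKM at 15DPA (log2 change −1.32 ± 0.37 SE, edgeR adjusted p = 0.0408). It was the only Endoglucanase 6 gene called lower.

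**Figure D3:**
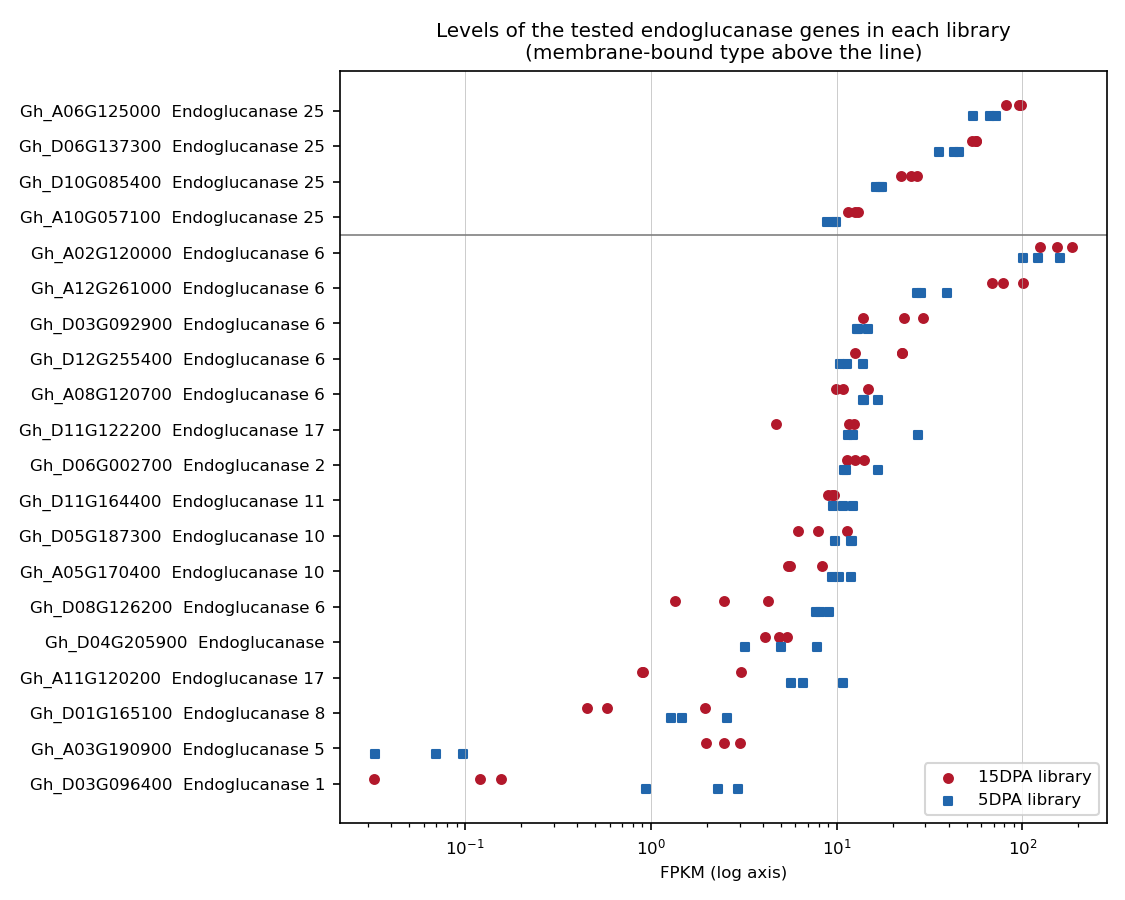
Each point is the FPKM of a tested member in 1 library, on a log axis, with 15DPA as circles and 5DPA as squares. The 4 Endoglucanase 25 genes show separate stages at levels from 8.90 to 98.0 FPKM, while most genes of other types show overlapping stages.

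Apart from these types the endoglucanase genes were of low abundance and took a smaller share of the endoglucanase total at 15DPA. They summed to 61.7, 67.5 and 50.5 FPKM at 15DPA and 73.2, 101 and 83.6 FPKM at 5DPA, and their share of the total was 11.2% ± 1.31 against 20.4% ± 4.57 (SD, n = 3 each). The shares did not overlap between the stages. The sums did not overlap in FPKM, but divided by the TMM factors they were 58.6 to 71.4 FPKM at 15DPA and 66.3 to 87.2 FPKM at 5DPA and overlapped. This sum came from Endoglucanase 17, 2, 10 and 11 in the main.

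Endoglucanase 17 had 2 genes, 1 on each subgenome. Gh_A11G120200, on A11 from 11854726 to 11857561, fell from 5.65, 10.8 and 6.55 FPKM at 5DPA to 0.898, 3.06 and 0.906 FPKM at 15DPA (log2 change −1.97 ± 0.46 SE, edgeR adjusted p = 0.0239). Its partner Gh_D11G122200 had 12.4, 11.6 and 4.73 FPKM at 15DPA and 12.3, 27.4 and 11.5 FPKM at 5DPA. This gene was not called (edgeR adjusted p = 0.372), with 1 high library at 5DPA and 1 low library at 15DPA.

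Both expressed Endoglucanase 10 genes were lower in the mean at 15DPA without passing. Gh_A05G170400 had 6.48 ± 1.60 and 10.6 ± 1.32 FPKM at 15DPA and 5DPA (SD, n = 3 each) with stages that did not overlap (edgeR adjusted p = 0.1). Gh_D05G187300 had 8.47 ± 2.61 and 11.2 ± 1.26 FPKM (edgeR adjusted p = 0.65). The Endoglucanase 2 gene Gh_D06G002700 had 12.7 ± 1.33 and 12.9 ± 3.20 FPKM (edgeR adjusted p = 0.405), and the Endoglucanase 11 gene Gh_D11G164400 had 9.39 ± 0.351 and 10.9 ± 1.34 FPKM (edgeR adjusted p = 0.723). The remaining tested members, the Endoglucanase 8 gene Gh_D01G165100 and the gene with the bacterial hit, Gh_D04G205900, were not called either (edgeR adjusted p = 0.568 and 0.775).

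The largest changes by edgeR were fitted to genes with very few reads in one stage, and their size depended on the scale. On the log2(FPKM + 1) scale limma gave 1.70 for Gh_A03G190900 and −1.41 for Gh_D03G096400, beside −1.78 for Gh_A11G120200 and −1.41 for Gh_D08G126200. Endoglucanase 5, which in Arabidopsis is active in root hairs, was nearly absent at 5DPA. Gh_A03G190900, on A03 from 103849941 to 103852701, had 2, 3 and 1 reads at 5DPA and 90, 77 and 57 reads at 15DPA. In FPKM these were 0.0668 ± 0.0326 and 2.48 ± 0.511 (SD, n = 3 each), and the gene rose by 5.42 ± 0.43 (SE, edgeR adjusted p = 0.00164). The second Endoglucanase 5 gene, Gh_D02G208200, stayed under the filter and was not tested. When genes of any level were tested, it was called higher too, with 2.86 ± 0.43 on the log2 scale (SE, edgeR adjusted p = 0.00414).

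The Endoglucanase 1 genes, named for a cellulase of ripening avocado fruit, went the other way. Gh_D03G096400, on D03 from 33567159 to 33569451, had 29, 96 and 75 reads at 5DPA and 5, 4 and 1 reads at 15DPA and fell by 3.98 ± 0.62 on the log2 scale (SE, edgeR adjusted p = 0.00825). Gh_A02G116500 was not tested at a mean of 0.954 FPKM, and without a filter it changed by −3.21 ± 0.77 on the log2 scale (SE, edgeR adjusted p = 0.0237). The Endoglucanase 5 gene met the filter through 15DPA and the Endoglucanase 1 gene through 5DPA, so that they could be tested because they differed. Other families stayed under 1 FPKM in every library, among them 4 Endoglucanase 16, 4 Endoglucanase 24 of Arabidopsis and 2 Endoglucanase 9 genes. Without a filter 1 of these, the Endoglucanase 24 gene Gh_D13G030900, was called lower, at −3.53 ± 0.98 on the log2 scale (SE, edgeR adjusted p = 0.0402).

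Cotton carries A and D copies of most genes, and 25 A and D pairs were found among the members. In 20 of them 1 A gene and 1 D gene on chromosomes of the same number shared the Swiss-Prot entry. The other 5, on chromosomes of different number, were paired after the data had been seen, by the Swiss-Prot entries shared among 10 genes on either side. The A02 and D03 Endoglucanase 6 genes, for instance, shared 10 of 11 annotated neighbours. Both copies were tested in 7 pairs. The A06 and D06 Endoglucanase 25 pair shared 2 of 11 annotated neighbours and the A08 and D08 Endoglucanase 6 pair 2 of 14, so these 2 pairings were the least certain of the 7. Neighbours did not single out the A08 and D08 pair. Gh_A08G120700 shared 2 of 14 with Gh_D03G092900 as well, and Gh_A02G120000 shared 3 of 11 with Gh_D08G126200. Gh_A06G125000 shared 0 of 11 with each of the other D Endoglucanase 25 genes.

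In the Endoglucanase 25 pairs the division between copies was steady. The A copy held 62.3% ± 1.90 of the A06 and D06 pair at 15DPA and 60.9% ± 1.66 at 5DPA, and 33.4% ± 3.46 and 35.9% ± 1.99 of the A10 and D10 pair (SD, n = 3 each). The stages overlapped in both. In all 3 Endoglucanase 6 pairs the A copy was the higher one in every library. It held 87.8% ± 1.94 of the A02 and D03 pair at 15DPA and 90.1% ± 1.58 at 5DPA, with overlapping stages. In the A12 and D12 pair its share went from 72.5% ± 1.40 at 5DPA to 81.3% ± 3.29 at 15DPA, and in the A08 and D08 pair from 63.9% ± 3.8 to 82.3% ± 5.39, both without overlap. In the Endoglucanase 17 pair the A share went from 32.0% ± 4.05 down to 14.6% ± 7.18, again without overlap. Stages did not overlap in 3 of the 7 pairs, and in 33.9% of 9142 A and D pairs of tested genes formed by chromosome number and a shared Swiss-Prot entry from the whole table. Copies can be near-identical, and how reads that match both were counted is not given in the sources used here, so shares of copies are uncertain.

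**Figure D4:**
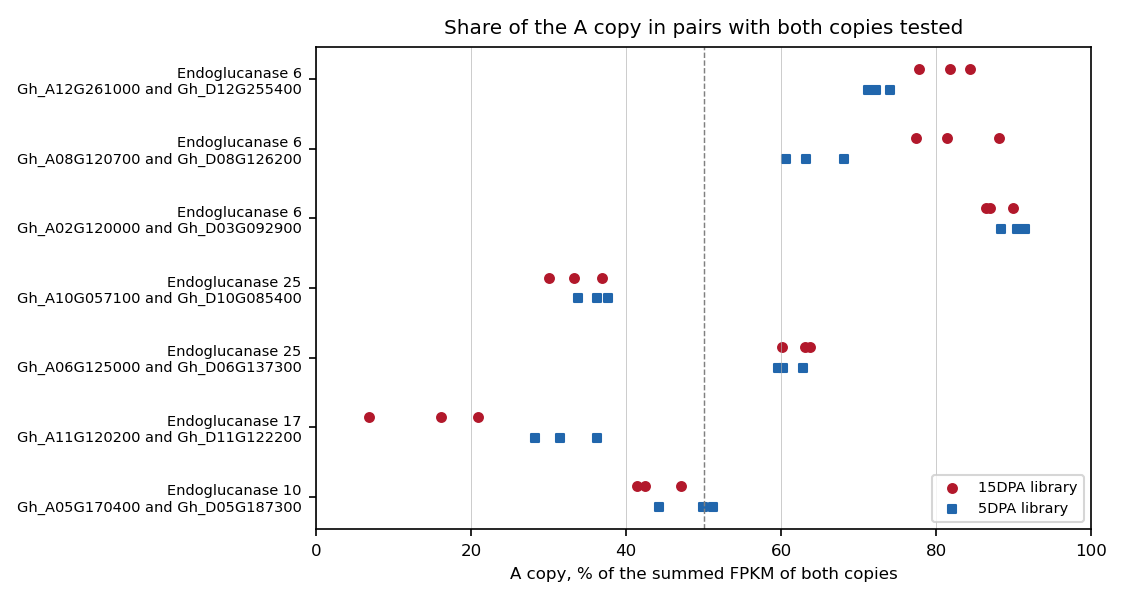
Points give the share of the A copy in the summed FPKM of each pair, 1 point per library, with 15DPA as circles and 5DPA as squares and a dashed line at 50%. The 2 Endoglucanase 25 pairs overlap between stages, and the 3 Endoglucanase 6 pairs all lie to the right of the line.

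The membrane-bound genes were set beside other genes of cellulose synthesis. Of 20 primary wall CesA genes, the catalytic subunits that make cellulose in growing walls, 10 rose and 0 fell. The median log2 change over all 20 was 0.51. Of 29 tested genes of cellulose synthase partners (COBRA, chitinase-like, CELLULOSE SYNTHASE INTERACTIVE, KOBITO and STELLO types) 8 rose, and the median over all 29 was 0.37. Of 12 secondary wall CesA genes 3 were tested, and 0 were called by edgeR and 0 by DESeq2, with 1 at an unadjusted p under 0.05. For every 100 FPKM of primary wall CesA the membrane-bound genes held 40.0, 36.5 and 44.1 FPKM at 15DPA and 40.2, 29.4 and 38.2 FPKM at 5DPA. These ratios overlapped between the stages. Endoglucanase 6 held 72.8, 61.7 and 55.5 FPKM for every 100 FPKM of primary wall CesA at 15DPA and 55.0, 44.8 and 69.5 FPKM at 5DPA, again with overlap.

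Many of these calls depended on single libraries. Gh_D10G085400, Gh_A12G261000, Gh_A03G190900 and Gh_D03G096400 passed without each library in turn, with adjusted p up to 0.0437, 0.0364, 0.0142 and 0.0383 by edgeR. Without 15DPA replicate 1 or 5DPA replicate 2 the other 7 called members did not pass. Calls over all genes also fell in these settings, from 9357 with every library to 2319 and 2338. They fell to 4779 without 5DPA replicate 1 and to 4234 without 5DPA replicate 3, so the loss was not particular to the members. Gh_A06G125000 and Gh_D03G092900 were also lost without 5DPA replicate 1 or 3 (edgeR adjusted p up to 0.106 and 0.118), Gh_D06G137300 and Gh_D12G255400 without 5DPA replicate 1 (up to 0.0945 and 0.0969) and Gh_A11G120200 without 5DPA replicate 3 (up to 0.0889). With a library left out the log2 change ran from 0.68 to 0.96 for Gh_A06G125000, from 0.60 to 0.83 for Gh_D06G137300 and from 0.60 to 0.73 for Gh_A10G057100. The adjusted p of Gh_A10G057100 reached 0.0731, and Gh_D08G126200 passed only with 15DPA replicate 3 left out (up to 0.119 otherwise). Members called higher numbered 3 when 15DPA replicate 1 or 5DPA replicate 2 was left out and 4 when 5DPA replicate 1 was left out, and the number called lower was 1 without 15DPA replicate 1, 5DPA replicate 2 or 5DPA replicate 3. With library totals in place of TMM scaling, which moved the median log2 change of all genes from −0.04 to −0.33, calls numbered 4 higher and 4 lower. Gh_A10G057100 and Gh_D06G137300 then missed the threshold (log2 change 0.37 and 0.43, edgeR adjusted p = 0.0592 and 0.0511), as did Gh_D03G092900 and Gh_D12G255400 (0.69 each, adjusted p = 0.0814 and 0.0701), and Gh_A05G170400 was called lower (−0.71, adjusted p = 0.0428).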

How the data were processed

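The authors' deposited table holds, per the file headers, whole-number read counts and FPKM values by gene and library. The deposited FPKM values equal count over gene model length in kilobases and library total in M counts. HISAT and StringTie are named, without versions, in the submitters' processing notes. The sources used here do not give the build, annotation, counting settings or use of strand, and coordinates are as in the table. Overlapping genes, antisense genes and near-identical copies are therefore uncertain. The table held 73622 genes; 2 empty lines were left out.

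Members were matched by Swiss-Prot description. Members and lists were chosen with earlier results of these data known. Groups came from the sample titles. Genes with a mean of at least 1 FPKM were tested (40054) with edgeR 4.0.16 in R 4.3.3 (quasi-likelihood, TMM, two-sided, Benjamini-Hochberg over all genes tested); the SE is the log2 change over the square root of F. The common biological coefficient of variation was 28.0%. P-values set the stage difference against the spread between these libraries, which edgeR estimates with information from all genes tested. The script was run on simulated counts with less spread than these data. That run checks the code and does not show how well changes of the size seen here are found.

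Named genes were every Endoglucanase 25 gene, the 10 other members of highest mean FPKM and every other called member. Members outside this rule that the text names were chosen after their values were seen. Alternatives were DESeq2 1.42.0, limma 3.58.1 on log2(FPKM + 1) and log2(FPKM + 0.1), library totals, no filter, a mean of at least 5 FPKM, a replicate block and each library left out. Sums divided by the TMM factors were added after the data had been seen. No batch is given in the labels. No sequence is shown, because the tables used here hold none.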

Additional observations from a re-analysis of the deposited data

How the results depend on the processing

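With library totals alone the members called higher numbered 4, of which 2 were membrane-bound. The median of the members was −0.09, beside −0.33 over all genes tested. Limma on log2(FPKM + 1) and on log2(FPKM + 0.1) each called 5 members higher. The medians of the members were −0.04 and −0.03, beside −0.28 and −0.34 over all genes tested. Of the limma calls over all genes 24.7% and 25.7% were higher. Without a filter 5 members were called lower and their median was −0.21, since members of low level then entered. Over all genes the median was −0.06 without a filter. At a mean of at least 5 FPKM 1 member was called lower, since fewer members were tested. With a library left out, calls ran from 3 to 8 higher and from 1 to 4 lower, from 1 to 4 for the membrane-bound genes and from 2319 to 11434 for all genes. The median of the members then ran from 0.09 to 0.37 and the difference in membrane-bound share from 1.00 to 5.27 percentage points. DESeq2 called 8 higher and 3 lower. Of calls higher or lower over all genes, 55.6% were higher under TMM and 27.1% with library totals. No named gene that was called in either setting changed sign; over the named genes and alternatives 36 values lost a call and 4 gained one.

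Whether the replicate numbers pair the libraries is not known. Same-numbered libraries had correlations of −0.262, 0.29 and 0.059 between their deviations from the stage means. Differently numbered libraries had −0.318 to 0.224. With 3 libraries per stage these values cannot decide it. With the replicate block 6 members were called higher and 3 lower, 4 of them membrane-bound, and 8971 genes in all. Depth limits the members under 1 FPKM most, since few reads stand behind each of their values.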
